A study of Homo sapiens with 4 samples.

Results

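A set of 9 genes that are targets of the receptor PPARA or serve fatty acid oxidation was followed in HepG2 cells, a human liver cancer line. They were CPT1A, PDK4, ANGPTL4, PLIN2, ACADM, ACSL1, HADHA, HADHB and FABP1. The cells were treated with APRIL, a soluble cytokine related to tumour necrosis factor. The members were the probe sets annotated with exactly 1 gene symbol, that symbol being 1 of the 9. This gave 20 of 54675 probe sets on the array and 9 of 19775 genes with such a probe set. Serum-starved cells were sampled on 4 arrays: untreated at 0 h, and after 2 h, 6 h and 12 h with 200 ng/ml APRIL. The starvation before sampling, which all groups share, lasted 24 h in the series' design text, whereas the labels' protocols call it overnight. Each time had 1 array and no untreated array at 2 h, 6 h or 12 h was used here, so treatment and elapsed time cannot be told apart, no test between times was possible, and every difference given is one between 2 arrays.

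PPARA is a nuclear receptor that fatty acids activate. It pairs with a retinoid X receptor on DNA and, in the fasted liver, raises the genes that take up, activate and oxidise fatty acids. FABP1 carries fatty acids in the hepatocyte cytosol, ACSL1 joins them to coenzyme A, and CPT1A passes them to carnitine, the controlled step of their entry into mitochondria. There ACADM starts beta-oxidation of medium-chain acyl-CoA, and HADHA and HADHB form the trifunctional protein that completes the cycle for long chains. PDK4 is a kinase that switches off pyruvate dehydrogenase, PLIN2 coats lipid droplets, and ANGPTL4 is a secreted inhibitor of lipoprotein lipase. These last 3 genes and CPT1A are well-known PPARA targets.

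The deposited values are taken to be on the log2 scale, and each was given relative to the median of that probe set over the 4 arrays. A value of 0 is therefore that median, not an absent transcript, and levels cannot be compared between probe sets or genes. It also means that hepatocyte markers could not be checked as levels. Because the median of 4 values lies midway between the middle pair, those 2 values mirror each other about 0. A gene's log2 ratio between 2 arrays is the median over its probe sets. The log base and the direction are taken as usual for this kind of file and are not stated.

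At no time did any of the 9 genes reach a 2-fold difference from the 0 h array. Among all genes, 2-fold was passed by 0.0455% (2 h), 0.384% (6 h) and 1.93% (12 h). ACSL1 had the largest ratio of the 9, a log2 ratio of 0.79 (1.73-fold) at 12 h, and was alone in passing 1.5-fold, which 8.15% of all genes did at that time (4.46% higher, 3.7% lower). CPT1A and PLIN2 were lower at 6 h, with log2 ratios of -0.35 and -0.47, and no member was past 1.5-fold at 6 h or 2 h, against 2.79% and 0.652% of all genes. FABP1 and HADHB had the lowest ratios at 12 h, both -0.40. The 9 genes had median log2 ratios of 0.090, -0.069 and -0.11 at 2, 6 and 12 h over 0 h, beside 0.016, 0.047 and 0.010 over all genes. Of the 9, 6 were above 0 at 2 h, 3 at 6 h and 2 at 12 h, beside 53.5%, 59.6% and 51.7% of all genes. The spread of all genes, as a robust SD of the log2 ratios, was 0.16 at 2 h, 0.20 at 6 h and 0.24 at 12 h, so most members lay inside it.

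**Figure D1:**
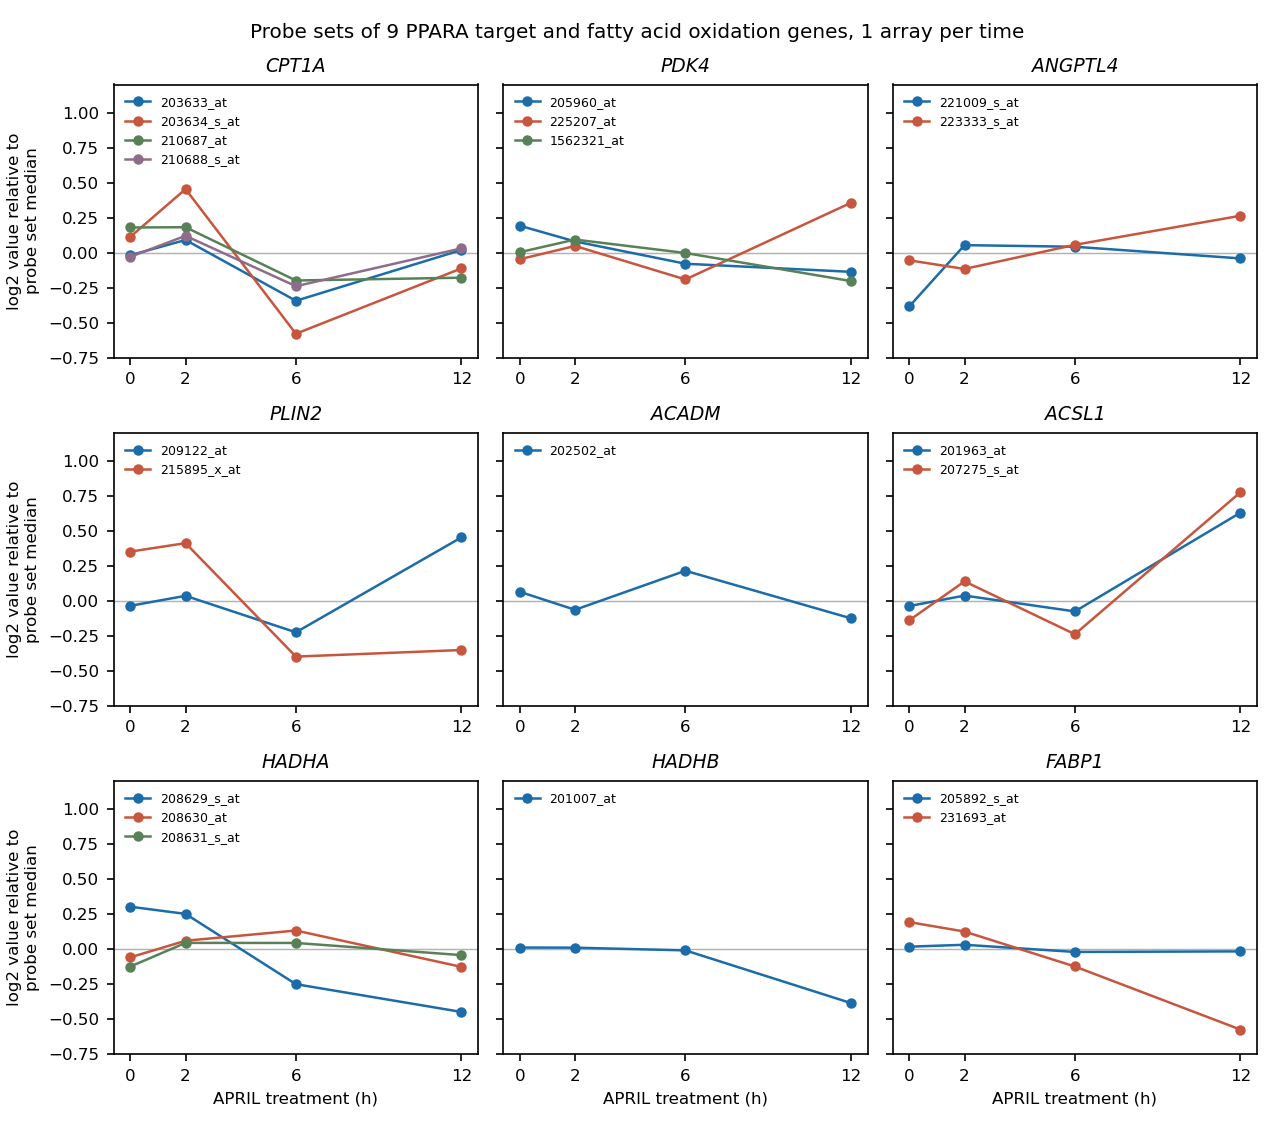
Deposited log2 values of all 20 probe sets, each relative to its own median over the 4 arrays (vertical axis), against hours of APRIL treatment (horizontal axis), 1 panel per gene and 1 line per probe set, with 1 array per time. Both ACSL1 lines end at their highest value at 12 h (0.63 and 0.78), all 4 CPT1A lines are lowest at 6 h, and the lines of PLIN2, PDK4, HADHA and FABP1 part from each other at 12 h.

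The bacterial and phage transcripts added at hybridisation, called bacterial controls here and read by 18 probe sets, shifted with time: their median ratio, in log2, was 0.012 (2 h), 0.055 (6 h) and -0.35 (12 h), with all 18 below 0 at 12 h (from -0.47 to -0.21). Set against them, every ratio of 12 h over 0 h is 0.35 higher and the median of all genes is 0.36. ACSL1 at 12 h is then at 1.14 and past 2-fold higher, as are 3.51% of all genes, beside 0.946% as deposited. The ratios of CPT1A, PDK4, PLIN2, ACADM and HADHA turn from below to above 0, where 90.5% of all genes then lie. HADHB is at -0.044 and FABP1 at -0.048. All other directions given are relative to the array as a whole.

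Among the 9 genes, the widest gene ratio against 0 h was that of ACSL1, which activates fatty acids. The ACSL1 probe set 201963_at was at -0.037 (0 h), 0.037 (2 h), -0.076 (6 h) and 0.63 (12 h). Its second probe set, 207275_s_at, was at -0.14 (0 h), 0.14 (2 h), -0.24 (6 h) and 0.78 (12 h). In both, the 12 h array was high and the 6 h array was lowest. Against 0 h the log2 ratios at 12 h were 0.67 and 0.91, with an SD of 0.17 between the 2 probe sets. Against the 6 h array they were 0.71 and 1.01, which gave a gene ratio of 0.86 (1.81-fold). The second of these was past 2-fold, as were 1.74% of all probe sets at that step. In the same comparison 6.91% of all genes were past 1.5-fold, 1.68% past 2-fold, and 2.58% had a ratio as large in size as that of ACSL1. Having the 12 h array highest in every probe set was seen in 13.3% of the 5015 genes with 2 probe sets, the number ACSL1 has. It was seen in 9.4% of the 10523 genes with 2 or more, and among the 7 such members in ACSL1 alone.

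RefSeq (GRCh38.p14) lists 5 start windows for ACSL1, each from 250 bases before to 50 bases after a start, and the probe sets do not tell them apart. The most upstream window, chr4:184825919-184826218 on the minus strand, is shown because ACSL1 differed most of the 9. Its G and C content was 82.3%. Capitals mark the GC box letters GGGCGG, searched on both strands, which match 6 times, with 1 pair overlapping. The same letters occurred in 45.0% of all 35116 windows.
ACSL1: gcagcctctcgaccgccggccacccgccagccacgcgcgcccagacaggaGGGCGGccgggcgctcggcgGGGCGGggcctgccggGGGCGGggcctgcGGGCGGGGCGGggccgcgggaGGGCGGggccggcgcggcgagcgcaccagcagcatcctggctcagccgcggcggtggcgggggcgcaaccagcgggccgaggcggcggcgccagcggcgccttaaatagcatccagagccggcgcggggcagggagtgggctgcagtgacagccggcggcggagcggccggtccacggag

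The other acyl-CoA synthetases differed from ACSL1 in their values. ACSL4, which prefers arachidonic acid, was past 2-fold lower at 6 h and 12 h, with log2 ratios of -1.34 and -1.12. Its 3 probe sets were at -1.34, -1.70 and -0.097 at 6 h over 0 h, so the gene's median follows the first 2. ACSL5 was at 0.29 (SD 0.33 over 2 probe sets) and ACSL6 at -0.21 (SD 0.36 over 5) at 12 h. Of these 3 relatives, ACSL4 alone passed 1.5-fold.

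Fatty acid binding by FABP1 rests on 2 probe sets that disagree in size. In 205892_s_at the values were 0.017 (0 h), 0.030 (2 h), -0.021 (6 h) and -0.017 (12 h). That range was narrower than in 99.3% of all probe sets on the array. In 231693_at they were 0.19 (0 h), 0.12 (2 h), -0.12 (6 h) and -0.58 (12 h). The second probe set was lower on each later array and its log2 ratio at 12 h was -0.77, while the first was at -0.034. The gene ratio of -0.40 at 12 h has an SD of 0.52 between the 2 and lies midway between a flat and a lower reading.

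Among the 9 genes, FABP1 alone carried letters of a nuclear receptor half-site in its start window, so that window is shown. It lies at chr2:88128013-88128312 on the minus strand (RefSeq, GRCh38.p14). Capitals mark AGGTCA on either strand, which matched 2 times, and 12 letters made of GGNCA, any base and AGGTCA, a pair of half-sites of which 1 is relaxed, which matched 1 time on the opposite strand and includes the first AGGTCA. The longer match begins 68 bases before the start. AGGTCA occurred in 13.8% of all windows and the 12 letters in 0.188%. The strict pair, AGGTCA, any base and AGGTCA, occurred in 0.0228% of windows and in none of the 13 windows of the 9 genes. Neither TGACGTCA, the cyclic AMP response element (1.85% of windows), nor GTAAACA, a forkhead site (3.42%), occurred in the 13 windows, in searches of both strands.
FABP1: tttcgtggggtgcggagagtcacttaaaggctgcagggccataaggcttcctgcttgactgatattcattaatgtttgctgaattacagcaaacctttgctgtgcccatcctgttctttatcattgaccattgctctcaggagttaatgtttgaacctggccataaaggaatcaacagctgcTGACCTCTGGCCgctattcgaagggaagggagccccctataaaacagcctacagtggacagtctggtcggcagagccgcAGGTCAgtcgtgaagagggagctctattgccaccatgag

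CPT1A, the gate to mitochondrial oxidation, had the same highest and lowest array in all 4 of its probe sets. Its probe set 203633_at was at -0.019 (0 h), 0.090 (2 h), -0.34 (6 h) and 0.019 (12 h). In 203634_s_at, the widest of the 4, the values were 0.11 (0 h), 0.45 (2 h), -0.58 (6 h) and -0.11 (12 h). The 2 h array was the highest and the 6 h array the lowest in both of these. For 210687_at the array values were 0.18 (0 h), 0.18 (2 h), -0.20 (6 h) and -0.18 (12 h), and for 210688_s_at they were -0.030, 0.12, -0.24 and 0.030 at the same times. These 2 gave the same order of the extremes, although in 210687_at the values at 0 h and 2 h differed by 0.0019 only.

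At 6 h over 2 h the gene's log2 ratio was -0.41 (1.33-fold lower), with 4 of 4 probe sets below 0, from -1.03 to -0.36 (SD 0.32). At that step 10.7% of all genes had a ratio as large in size as that of CPT1A, while 3.65% were past 1.5-fold and 0.445% past 2-fold. The value of -1.03, in 203634_s_at, was past 2-fold, as were 1.79% of all probe sets. At 12 h over 6 h the ratio was 0.32 (SD 0.19), again with 4 of 4 probe sets of 1 sign, and at 12 h over 0 h it was -0.094, with 2 above and 2 below 0. All probe sets highest at 2 h and lowest at 6 h was found in 60 of the 10523 genes with 2 or more probe sets (0.57%), and CPT1A was the only one among the 1393 genes with 4. This pattern was picked after its values were seen, and single probe sets showed it in 8.38% of cases over the whole array.

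Control probe sets at the 5′ end and in the middle of the beta-actin transcript (ACTB) had the same highest and lowest array. At the 5′ end of ACTB the values were 0.14 (0 h), 0.44 (2 h), -0.43 (6 h) and -0.14 (12 h), a log2 ratio of -0.87 for 6 h over 2 h. At its 3′ end that ratio was -0.25, and in its middle -0.67. Along GAPDH the same ratio was -0.16 at the 5′ end and -0.075 at the 3′ end. The 5′ signal of actin thus differed more than its 3′ signal at the step to the array where CPT1A was lowest, and the part of this in the CPT1A values was not tested.

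**Figure D2:**
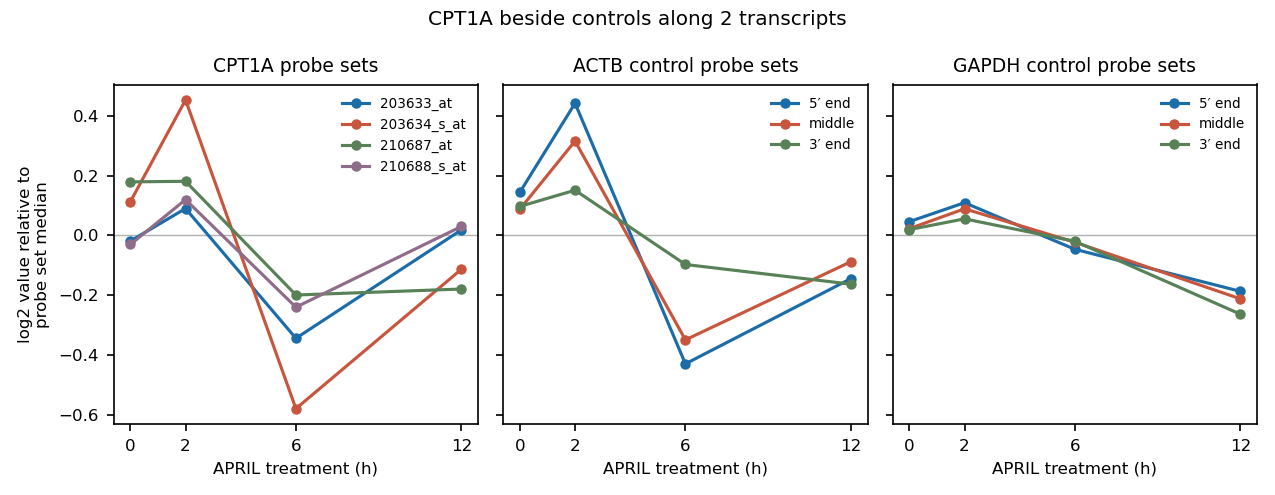
Deposited log2 values relative to each probe set's median (vertical axis) against hours of APRIL treatment (horizontal axis) for the 4 CPT1A probe sets and for control probe sets at the 5′ end, middle and 3′ end of ACTB and GAPDH, 1 array per time. CPT1A probe sets and the actin controls are highest at 2 h, and the 5′ end and middle of actin (-0.43 and -0.35) and all CPT1A lines are lowest at 6 h, while GAPDH is lowest at 12 h.

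CPT1C, a brain-enriched relative of CPT1A, was at -0.072 at 12 h over 0 h. CPT2, which returns the acyl group to coenzyme A inside the mitochondrion, was lower at both later times, with log2 ratios of -0.63 at 6 h and -0.77 at 12 h. Its 2 probe sets were at -0.61 and -0.65 at 6 h and at -0.59 and -0.95 at 12 h. CPT2 therefore stayed low at 12 h, where the CPT1A ratio was close to 0. Against the bacterial controls the 12 h ratios were -0.42 for CPT2 and 0.26 for CPT1A.

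The oxidation enzymes themselves showed small differences. ACADM, read by 1 probe set, was at 0.064 (0 h), -0.064 (2 h), 0.21 (6 h) and -0.13 (12 h), and its ratios against 0 h stayed between -0.19 and 0.15. HADHB, also on 1 probe set, was at 0.011 (0 h), 0.0097 (2 h), -0.0097 (6 h) and -0.39 (12 h). It was level over 3 arrays and lower on the last, with a log2 ratio of -0.40 at 12 h, a size that 17.7% of all genes reached.

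For HADHA the 3 probe sets split. In 208629_s_at the values were 0.30 (0 h), 0.25 (2 h), -0.25 (6 h) and -0.45 (12 h), a log2 ratio of -0.75 at 12 h. In 208630_at they were -0.059, 0.059, 0.13 and -0.13 at these times, and in 208631_s_at -0.12, 0.044, 0.043 and -0.043. The first probe set was lower on the 2 later arrays while the other two stayed within 0.13 of their medians, and the gene's median log2 ratio at 12 h was -0.068 (SD 0.44 over 3 probe sets). At 12 h over 6 h the 3 were all below 0, from -0.26 to -0.087.

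HADHA and HADHB encode the 2 subunits of one enzyme and are transcribed away from each other on chromosome 2. In RefSeq (GRCh38.p14) HADHA lies on the minus strand and HADHB on the plus strand, with 306 bases between their starts. The HADHB window, chr2:26244689-26244988, on the plus strand, is shown because much of it lies before the starts of both genes. Capitals mark the 194 bases, chr2:26244689-26244882, that also lie in the window of HADHA.
HADHB: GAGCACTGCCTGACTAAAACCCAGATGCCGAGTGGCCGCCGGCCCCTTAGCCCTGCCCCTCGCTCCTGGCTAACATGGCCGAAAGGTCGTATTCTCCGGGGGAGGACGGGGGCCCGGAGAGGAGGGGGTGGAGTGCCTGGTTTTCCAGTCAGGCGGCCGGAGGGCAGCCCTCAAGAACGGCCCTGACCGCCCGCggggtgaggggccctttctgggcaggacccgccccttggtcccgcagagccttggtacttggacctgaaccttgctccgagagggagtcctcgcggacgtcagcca

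At 12 h over 0 h the log2 ratios ran from -0.75 to 0.081 over the HADHA probe sets, beside the single HADHB reading of -0.40. The HADHB value lay inside the range of the HADHA probe sets.

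PDK4, PLIN2 and ANGPTL4, the PPARA targets outside the oxidation pathway, differed from each other. PDK4 had 3 probe sets. The values were 0.19, 0.080, -0.080 and -0.14 at 0 h, 2 h, 6 h and 12 h in 205960_at, and 0.0029, 0.093, -0.0029 and -0.20 in 1562321_at. In 225207_at they were -0.047, 0.047, -0.19 and 0.36. The last was highest at 12 h, where the other two were lowest, and the gene ratio at 12 h was -0.21 with an SD of 0.39.

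The other kinases of pyruvate dehydrogenase lay below 0 at 12 h. PDK1, a target of hypoxia signalling, had a log2 ratio of -0.70 at 6 h and -0.92 at 12 h (SD 0.26 and 0.45 over 3 probe sets, all below 0). PDK3 was at -0.73 at 12 h (SD 0.36 over 5 probe sets, all below 0), and PDK2 at -0.22. DLD, the dehydrogenase subunit shared by several such complexes, was at -0.45. Of the 10 genes of pyruvate dehydrogenase and its regulators read here besides PDK4, 8 were below 0 at 12 h and 2 were past 1.5-fold lower, with none past 2-fold, beside 47.7% below 0 and 3.7% past 1.5-fold lower among all genes. Against the bacterial controls the list's median was 0.084 in place of -0.27, beside 0.36 over all genes. PDK1 was then at -0.57 and PDK3 at -0.37, so both calls ended.

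PLIN2 had the 6 h array lowest in both of its probe sets, which was also so for CPT1A and ACSL1. Lowest at 6 h in every probe set was seen in 3 of the 7 members with 2 or more probe sets and in 4.37% of all such genes, a comparison made after the values were seen. The share was 6.86% among genes with 2 probe sets, as PLIN2 and ACSL1 have, and 1.51% among those with 4, as CPT1A has. In 209122_at PLIN2 was at -0.036 (0 h), 0.036 (2 h), -0.22 (6 h) and 0.45 (12 h). In 215895_x_at it was at 0.35 (0 h), 0.41 (2 h), -0.40 (6 h) and -0.35 (12 h). Both were lower at 6 h than at 2 h, with log2 ratios of -0.26 and -0.81, but at 12 h over 0 h one was at 0.49 and the other at -0.70. The gene's 12 h ratio of -0.11 (SD 0.84) therefore describes neither probe set. Without probe sets whose names end in _s_at or _x_at, which may read more than 1 transcript, PLIN2 was at 0.49 at 12 h.

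Of the other lipid droplet and lipolysis genes, 0 of 14 passed 1.5-fold at any time against 0 h, a count near the shares of all genes (0.652%, 2.79% and 8.15% at 2, 6 and 12 h). HILPDA, an inhibitor of the main triglyceride lipase, had log2 ratios of 0.25, -0.26 and -0.41 at 2 h, 6 h and 12 h. CIDEA, a droplet fusion protein, was at -0.40 at 2 h and 0.11 at 12 h, and the lysosomal lipase LIPA was at 0.41 at 6 h and -0.11 at 12 h. The other perilipins lay between -0.36 (PLIN1) and -0.050 (PLIN3) at 12 h.

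ANGPTL4 was the one secreted product among the 9. Its probe set 221009_s_at was at -0.38 (0 h), 0.053 (2 h), 0.042 (6 h) and -0.042 (12 h), so the untreated array was low and the 3 treated arrays were close together. In 223333_s_at the values were -0.056 (0 h), -0.12 (2 h), 0.056 (6 h) and 0.26 (12 h). The gene's log2 ratios were 0.19 (SD 0.35), 0.27 (SD 0.22) and 0.33 (SD 0.017) at 2 h, 6 h and 12 h, and both probe sets were above 0 at 6 h and 12 h. At 12 h 23.3% of all genes had a ratio as large in size. ANGPTL4 was the only member besides ACSL1 above 0 at 12 h.

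Partners of ANGPTL4 around lipoprotein lipase included 2 genes past 1.5-fold lower at 12 h among 8 read, LIPG, the endothelial lipase, at -0.77 and APOC3, a circulating inhibitor of triglyceride clearance, at -0.63 (SD 0.17). ANGPTL8, which acts with a relative of ANGPTL4, was at -0.56 at 6 h and -0.17 at 12 h. LPL itself was at 0.066 at 12 h. None of the 8 was past 2-fold, and 3.7% of all genes were past 1.5-fold lower. Against the bacterial controls LIPG was at -0.42 and APOC3 at -0.28, so both calls ended. The list's median was then 0.18 in place of -0.18, beside 0.36 over all genes.

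**Figure D3:**
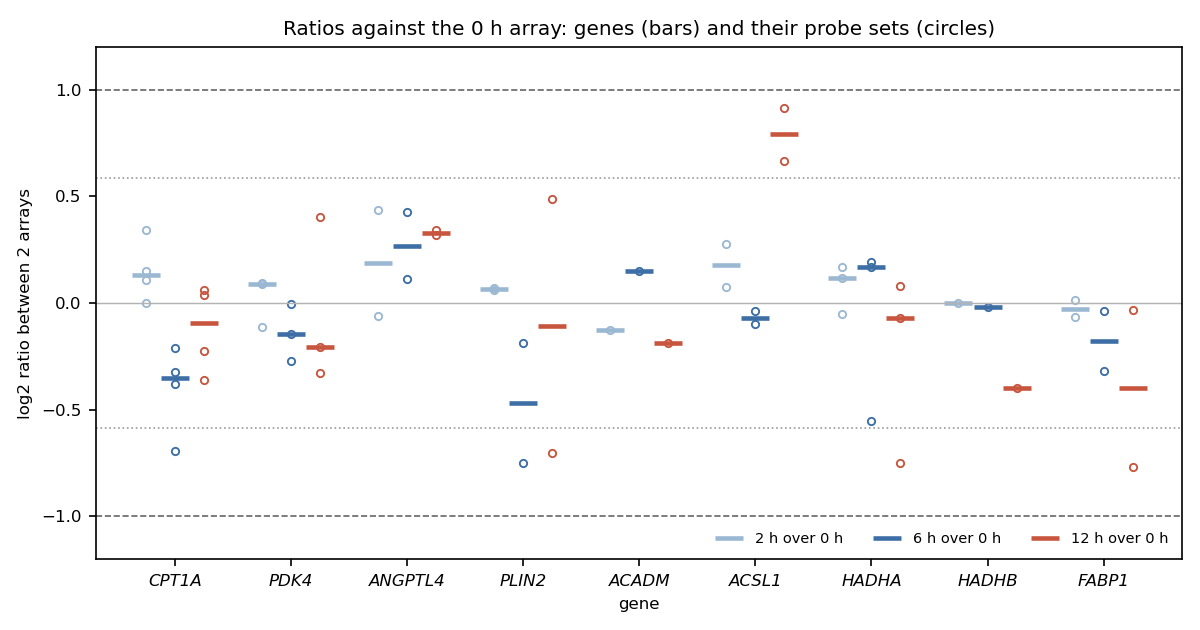
Log2 ratios of the 2 h, 6 h and 12 h arrays over the 0 h array (vertical axis) for the 9 genes (horizontal axis), where bars are the gene's median over probe sets and circles the probe sets; dotted lines mark 1.5-fold and dashed lines 2-fold. ACSL1 at 12 h (0.79) is the only bar beyond a dotted line, and the 12 h circles of PLIN2 lie apart at 0.49 and -0.70.

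Across the 7 members with several probe sets, all probe sets had 1 sign in 3 genes at 2 h, in 6 at 6 h and in 3 at 12 h. Of the 10523 genes with 2 or more probe sets, whose number of probe sets bears on this, 38.2%, 39.2% and 42.9% had 1 sign at these times. HADHA was the exception at 6 h. The 3 at 12 h were ANGPTL4, ACSL1 and FABP1, so the 12 h direction of the other 4 depends on the probe set. Of the 20 probe sets, 9 had both the 0 h and 2 h values above both later values, as did 20.3% of all probe sets. They included 208629_s_at of HADHA, 215895_x_at of PLIN2 and 231693_at of FABP1, the 3 member probe sets past 1.5-fold lower at 12 h, where 5.91% of all probe sets were. The 2 past 1.5-fold higher, against 5.7% of all, were those of ACSL1. Control probe sets for 18S ribosomal RNA had this order too, with 0.54 (0 h), 0.26 (2 h), -0.26 (6 h) and -0.41 (12 h) at the 5′ end and 1.33, 0.51, -0.51 and -0.58 in the middle. Their part in the member values was not tested.

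The wider pathway was read from 9 lists with 106 of 123 genes readable here, written with earlier results of these data known, and the remaining 17 are not analysed here. At 12 h over 0 h, 5 of the 106 (4.72%) were past 2-fold lower and 1 (0.943%) was past 2-fold higher, beside 0.986% lower and 0.946% higher among all genes. Past 1.5-fold, 16 (15.1%) were lower and 5 (4.72%) higher, beside 3.7% and 4.46%. Against the bacterial controls, which raises all 12 h ratios, 6 (5.66%) were past 1.5-fold lower and 20 (18.9%) higher, beside 1.16% and 19.3% of all genes. Past 1.5-fold, the share higher was then near that of all genes, and the share lower was still above it. Past 2-fold, 0 were lower and 4 (3.77%) higher, beside 0.384% and 3.51% of all genes. At 6 h the counts past 1.5-fold were 4 lower and 0 higher, and at 2 h 0 lower and 1 higher. Among all genes these shares were 1.64% and 1.15% at 6 h, and 0.344% and 0.308% at 2 h. The share of all genes includes genes that HepG2 may not express, which values without levels cannot separate.

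Peroxisomal oxidation held the lowest 12 h ratio against 0 h of the 9 lists. EHHADH, the peroxisomal bifunctional enzyme and a PPARA target, was at 0.22 (0 h), -0.092 (2 h), 0.092 (6 h) and -1.13 (12 h), a log2 ratio of -1.35 at 12 h. ACOX2, an oxidase of branched-chain and bile acid intermediates, was at -0.098 (0 h), 0.098 (2 h), 0.14 (6 h) and -1.14 (12 h), with a ratio of -1.04. Each rests on 1 probe set, and in both the first 3 arrays lay together and the last was low. Of 12 genes of this list, 10 were below 0 at 12 h, beside 47.7% of all genes, and the median was -0.26. Past 2-fold lower were 2, beside 0.986% of all genes. Set against the bacterial controls, which raises all 12 h ratios, the list median was 0.097, beside 0.36 over all genes. EHHADH was then at -0.997 and ACOX2 at -0.69, so both 2-fold calls ended, where 0.384% of all genes were past 2-fold lower. Both genes were still past 1.5-fold lower, as were 1.16% of all genes.

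In the mitochondrial list, besides CPT2, the lowest at 12 h were DECR1, which handles unsaturated fatty acids, at -0.95 on 1 probe set, and HADH, the dehydrogenase for shorter chains, at -0.72 (SD 0.15). The 3 HADH probe sets were at -0.57, -0.88 and -0.72. None of the 17 genes read was past 2-fold, and 3 were past 1.5-fold lower, beside 3.7% of all genes. Below 0 were 13, beside 47.7% of all genes, and the median was -0.14. Against the bacterial controls the median was 0.22, beside 0.36 over all genes. Past 1.5-fold, 1 was then lower and 3 higher, beside 1.16% and 19.3% of all genes. DECR1 was at -0.60, but HADH was at -0.36 and CPT2 at -0.42, so these 2 calls ended. HADH was thus lower on all its probe sets, whereas the long-chain counterpart HADHA was not.

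Among 13 genes of uptake, binding and activation, 2 were past 2-fold lower at 12 h, beside 0.986% of all genes. They were ACSL4 and CD36, a fatty acid receptor of the cell surface, the latter at -1.05. The 5 probe sets of CD36 ran from -1.63 to -0.043 (SD 0.71), with 3 past 2-fold, and without its _s_at and _x_at probe sets the ratio was -0.55. The list had 10 genes below 0, beside 47.7% of all genes, and a median of -0.25. Against the bacterial controls that median was 0.10, beside 0.36 over all genes. In the list of ketogenesis and other PPARA targets, 1 of 10 was past 2-fold lower, beside 0.986% of all genes. This was UCP2, a mitochondrial carrier, at -1.13, but its 2 probe sets were at -0.42 and -1.85. That list had 5 genes above and 5 below 0 at 12 h, with a median of 0.040. Against the bacterial controls CD36 was at -0.70, ACSL4 at -0.77 and UCP2 at -0.78, so these 2-fold calls ended too. All of them were still past 1.5-fold lower, as were 1.16% of all genes.

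The receptors and cofactors lay mostly above 0. Of 17 read, 14 were above 0 at 12 h and 2 below, beside 51.7% above 0 among all genes, with a median log2 ratio of 0.29. Against the bacterial controls that median was 0.64, beside 0.36 over all genes. LPIN2, a phosphatidate phosphatase of the lipin family, was at -0.091 and -0.11 at 0 h, -0.26 and -0.21 at 2 h, 0.091 and 0.11 at 6 h and 1.05 and 0.79 at 12 h in its 2 probe sets. It was high on the 12 h array alone, with a ratio of 1.02 (SD 0.17), the single gene of the 9 lists past 2-fold higher. PPARA itself was at 0.013, 0.17 and 0.00 at 2 h, 6 h and 12 h (SD 0.43 over 9 probe sets at 12 h). At each time the PPARA ratio was smaller in size than the SD between its probe sets, which was 0.17 at 2 h and 0.26 at 6 h. LPIN2 and ACSL1 were high on the same array.

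Among the regulators of malonyl-CoA, the metabolite that inhibits CPT1A, 0 of 5 genes passed 1.5-fold at any time against 0 h, and with 8.15% of all genes past it at 12 h this count is near that share. ACACA, which makes malonyl-CoA, was at -0.21 at 12 h (SD 0.17). PRKAA1 and PRKAA2, catalytic subunits of AMP-activated kinase, were at 0.21 (SD 0.28) and 0.47 (SD 0.20). Against the bacterial controls PRKAA2 was at 0.83, past 1.5-fold higher, as were 19.3% of all genes. The list's median was then 0.28 in place of -0.072, beside 0.36 over all genes. Markers of hepatocytes had a median of 0.053 at 12 h over 9 genes. Those of immune cells, fibroblasts and endothelium had 0.063, 0.055 and -0.14. No marker was past 2-fold against 0 h at any time, a count near the share of all genes at 12 h (1.93%). Against the bacterial controls the marker medians were 0.41, 0.42, 0.41 and 0.21 in the same order, beside 0.36 over all genes. Without _s_at and _x_at probe sets the endothelial median was 0.12.

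**Figure D4:**
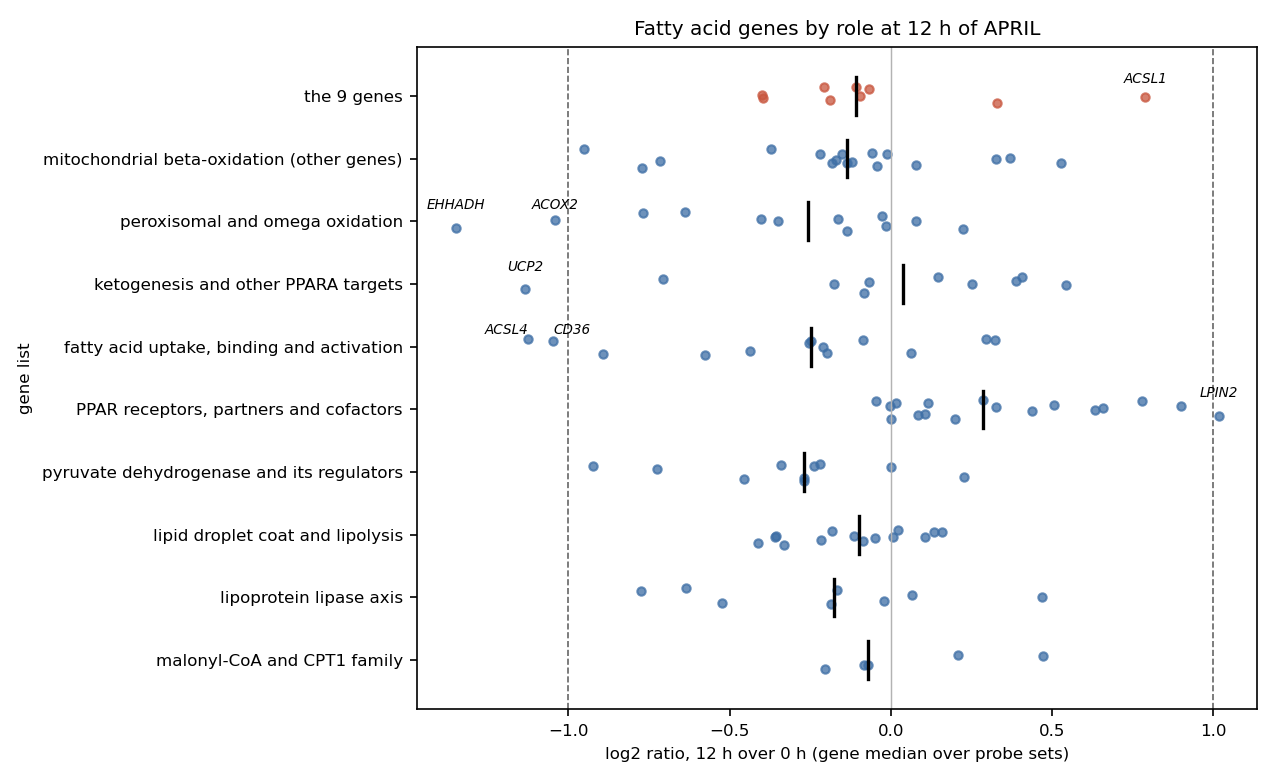
Log2 ratios of the 12 h over the 0 h array (horizontal axis) for the 9 genes and 9 other lists of fatty acid genes (rows), 1 point per gene as the median over its probe sets, with each list's median as a vertical bar and dashed lines at 2-fold. ACSL1 lies farthest right among the 9 genes, EHHADH (-1.35) and ACOX2 (-1.04) farthest left among the peroxisomal genes, and the receptors and cofactors lie mostly right of 0 with LPIN2 at 1.02.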

How the data were processed

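Total RNA was hybridised to 4 U133 Plus 2.0 arrays of Affymetrix. RMA is the tool named in the submitters' processing notes (no version). The log base of the deposited values is not stated, and they are taken as log2 here. The median of the values per probe set was 0 within 1e-06, and the centring step is not stated in those notes. The arrays give no depth, and their number limits the precision.

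Symbols came from the platform annotation, updated by gene identifier to RefSeq (GRCh38.p14): 41091 probe sets had 1 symbol, 1801 several, 11721 none, and 62 were controls. Ratios, medians over probe sets and counts were computed in Python 3.11.15 with pandas 2.3.3 and numpy 2.4.6, and the computation was tested on simulated data. With 1 array per time no p-value was computed.

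The 9 genes and all lists were chosen with earlier results of these data known. Named genes were all 9 with every probe set, list genes past 2-fold against 0 h, or else the 3 with the largest ratios of a list. PPARA, LPL, PDK2, CPT1C and the relatives of ACSL1 and PLIN2 were named besides. Alternatives were another gene summary, fewer probe sets, 2 centrings, other thresholds and another reference. Start windows came from RefSeq's table. The values of 1 further control transcript are not reported here.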

Additional observations from a re-analysis of the deposited data

How the results depend on the processing

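The count of members past 2-fold was 0 in all 5 comparisons. It became 1, which was ACSL1, at 12 h over 0 h and at 12 h over 6 h when arrays were centred on the bacterial controls, and 1 in each with a 1.5-fold threshold. Against the bacterial controls 3.51% of all genes were past 2-fold higher at 12 h over 0 h. With each gene read by its widest-ranging probe set the members' count was 1 at 6 h over 2 h (CPT1A) and 1 at 12 h over 6 h (ACSL1). The members' median was 0.25 at 12 h over 0 h and 0.37 at 12 h over 6 h against the bacterial controls, beside -0.11 and -0.058 as deposited. The cause of that shift was not tested. Of 27 single ratios of the 9 genes against 0 h, the mean over probe sets changed the sign of 1, leaving out _s_at and _x_at probe sets 1 of 24, the widest probe set 3, the bacterial controls 5 and the mean of the other 3 arrays 6, while centring on array medians changed 0. ACSL1 at 12 h over 0 h stayed between 0.67 and 1.14 over these 6 settings. Without _s_at probe sets ANGPTL4 has no value. No paired analysis was possible because each time has 1 array. Signal over background is unknown, since the values hold no levels.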
